A study of Mus musculus with 39 samples.

Results

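The cadherins and non-clustered protocadherins were taken as the protein-coding genes whose symbol is Cdh or Pcdh followed directly by a number, with the clustered Pcdha, Pcdhb and Pcdhg genes left out. This rule found 35 genes among 21865 protein-coding genes and 53379 genes in all. A mean count of 10 or more over the libraries used was reached by 20 of the 35, which were judged. Of these, 3 were of 5 type I cadherins, 7 of 13 type II cadherins and 1 of 5 other cadherins, and 3 were of 4 delta-1, 5 of 5 delta-2 and 1 of 3 other protocadherins. None of the 35 lies on chromosome 7, which is the chromosome that the mosaic alters in these embryos, while 8 lie on chromosome 8, 5 on chromosome 14, 5 on chromosome 15 and 2 on the X chromosome.

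RNA was sequenced from small pools of fluorescent cells sorted from the neocortex of single embryos, 13 or 16 days after conception (E13 and E16), 1 library for each colour of an embryo. The genotype was the same in every embryo: the marker cassettes MADM-7-GT and MADM-7-TG on chromosome 7 (MADM, mosaic analysis with double markers) and the Emx1-Cre driver, which is active in progenitors of cortical excitatory neurons and glia, in a mixed C57BL/6J, CD1 background (strain CD1 in the labels). Recombination leaves red (tdTomato) and green (GFP) cells whose chromosome 7 pair comes from a single parent. It also leaves yellow (GFP and tdTomato) cells with a copy from each parent. For this genotype the study describes green cells as carrying the maternal and red cells the paternal disomy. The labels give no direction for a library, so groups were named by colour. The groups used here were E13 yellow, red and green with 5 libraries each and E16 yellow, red and green with 7 each, after 3 of the 39 libraries with under 40% uniquely aligned reads (E13 yellow replicate 3, and red and green replicate 5) were left out. They came from 6 embryos at E13 and 7 at E16.

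Cadherins are calcium-dependent adhesion proteins that bind mainly the same or a related cadherin on the neighbouring cell. Type I and type II cadherins link through beta-catenin and p120-catenin to the actin cytoskeleton, and in the developing cortex they hold progenitors together at the ventricular surface and sort neurons into layers and areas. Non-clustered protocadherins lack the catenin-binding tail, and several delta-2 members bind the WAVE actin-regulating complex instead.

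The RefSeq promoter table for GRCm38.p6 held 25 entries for 22 of the 35 members. The 3 stretches shown are the 250 bases directly before the RefSeq transcription start, each outside the Gencode bounds of its own gene. They belong to the member that fell most firmly with age (Pcdh19), to the delta-2 member with the highest level per length (Pcdh8) and to a member that was nearly undetected (Cdh26). They are written 5' to 3' on the strand of the gene, with each CG pair in capitals, and lie at chrX:133688994-133689243 on the minus strand, chr14:79771313-79771562 on the minus strand and chr2:178430265-178430514 on the plus strand.
Pcdh19: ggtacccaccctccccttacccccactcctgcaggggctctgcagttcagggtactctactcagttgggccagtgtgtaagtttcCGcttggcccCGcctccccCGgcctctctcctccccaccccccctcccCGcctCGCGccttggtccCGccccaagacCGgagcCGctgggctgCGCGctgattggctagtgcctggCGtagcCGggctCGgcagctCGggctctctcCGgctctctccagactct
Pcdh8: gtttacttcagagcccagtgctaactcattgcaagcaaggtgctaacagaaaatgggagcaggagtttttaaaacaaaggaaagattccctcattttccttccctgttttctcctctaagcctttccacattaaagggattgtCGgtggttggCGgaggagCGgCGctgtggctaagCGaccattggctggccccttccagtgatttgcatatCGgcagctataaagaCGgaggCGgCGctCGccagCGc
Cdh26: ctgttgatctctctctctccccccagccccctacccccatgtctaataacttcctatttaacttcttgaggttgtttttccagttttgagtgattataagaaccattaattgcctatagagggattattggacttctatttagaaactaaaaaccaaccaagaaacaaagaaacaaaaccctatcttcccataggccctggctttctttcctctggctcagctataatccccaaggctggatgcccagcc

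The Pcdh19 stretch held 16 CG pairs, the Pcdh8 stretch 11 and the Cdh26 stretch none. A CG pair reads the same on both strands, and 92.1% of all 32851 promoter entries held at least 1 in these 250 bases, with a median of 6. Entries of judged members ranged from 2 pairs for Cdh10 to 23 for Pcdh18 with a median of 14.5 over 18 entries. The 7 entries of members that were not judged ranged from 0 for Cdh26 to 30 for Cdh22 with a median of 6. As many pairs as in the Pcdh19 stretch were found in 25.4% of all entries. These are counts of letters, and methylation was not measured. The RefSeq start of Pcdh19 lies 6 bases upstream of its Gencode start, and that of Cdh26 lies 16 bases upstream of its own.

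Gene counts of the 36 libraries ran from 472924 to 5205788, and 7858 to 13768 genes were detected in a library. Of these, 6 libraries stood apart, with a mean correlation to the others of their age that was more than 3 median absolute deviations below the median. They were E13 yellow 2, E13 green 4, E16 yellow 7, E16 red 5, E16 red 6 and E16 green 7, and they had 7858 to 10194 genes detected. Fold changes with and without them are given for some comparisons of Pcdh19, Pcdh11x, Cdh4, Cdh7, Cdh12 and Cdh13. For other members they are given only with them. Markers of excitatory cortex were high in every group, with summed projection neuron markers of 2079.7 counts per 1000000 gene counts (CPM) or more and radial glia markers of 246 CPM or more in each library.

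The family as a whole was carried by a few members. Per kilobase of exon, Cdh13 (T-cadherin, which is anchored in the membrane by a lipid and has no cytoplasmic tail) had the highest mean level over the 36 libraries, at 16.4 CPM per kb. It was followed by Pcdh8 at 13, Cdh2 (N-cadherin, the main cadherin of the neuroepithelium) at 8.35, Cdh4 (R-cadherin) at 7.85, Pcdh9 at 7.55 and Pcdh18 at 6.32 CPM per kb. A middle group held Pcdh19 (3.55), Pcdh7 (2.89), Pcdh17 (2.77), Cdh6 (2.77), Cdh11 (2.39), Cdh10 (1.58) and Cdh8 (1.16 CPM per kb). The lowest judged members were Cdh15 (1.12), Cdh24 (1.03), Cdh12 (1.02), Cdh7 (0.888), Pcdh10 (0.817), Pcdh11x (0.516) and Pcdh15 (0.175 CPM per kb). The order differed between groups. By group means Cdh13 was the highest in 4 of the 6 groups, with 17.1 CPM per kb beside 17.0 for Pcdh8 in E16 green. Pcdh18 was above it in E13 green, at 15.2 against 10.1 CPM per kb, and Pcdh8 in E16 red, at 13.4 against 12.1 CPM per kb. These differences were not tested. Cdh13 also took the largest part of the summed CPM of the 35 members in yellow cells, with a median share of 31.8% over the E13 libraries (20.6% to 42.9%) and of 36.3% over the E16 libraries (6.00% to 46.6%).

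Counts were taken without strand, and reads on exons shared by a member and another annotated gene are tallied as ambiguous and given to neither. This touches Pcdh7, of whose exons 21.1% overlap 4932441J04Rik on the opposite strand, and Pcdh8, of whose exons 9.61% overlap Gm9748 on the opposite strand. For Cdh12 the share was 3.14%. Levels per kb divide by the whole exon length, so those of Pcdh7 and Pcdh8 may be too low, and by how much was not tested.

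The 15 members that were not judged were low throughout. Cdh16 (a kidney cadherin), Cdh20 and Pcdh12 (an endothelial protocadherin) had no count in any of the 36 libraries. A count of 0 is compatible with up to 3 counts, which is 0.576 CPM in the deepest library and 6.34 CPM in the shallowest, for counting error alone. Cdh5 (VE-cadherin, of endothelial junctions) reached at most 2.57 CPM, Cdh3 (P-cadherin) 2.07, Cdh18 2.12, Cdh9 5.89, Cdh22 7.04, Cdh17 7.91, Pcdh1 10.5, Cdh23 (part of the tip link of hair cells, with Pcdh15) 13.1 and Pcdh20 22.0 CPM. Cdh1 (E-cadherin, of epithelia) was counted in 2 libraries only, up to 35.9 CPM, and Cdh19 and Cdh26 in 1 library each, at 0.291 and 0.929 CPM.

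**Figure D1:**
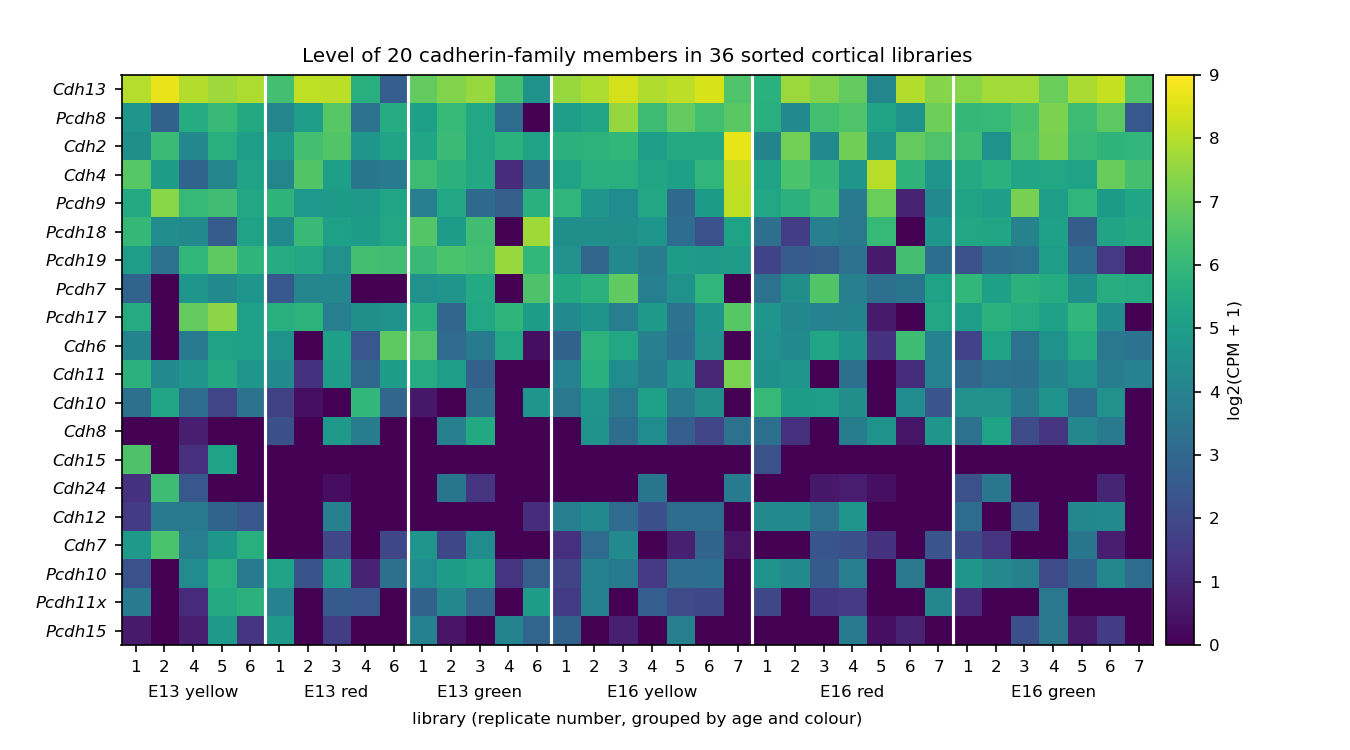
Level of the 20 judged members (lines, ordered by CPM per kb) in the 36 libraries (columns, by age, colour and replicate number), as log2(CPM + 1) with no error bars since each cell is 1 library. Cdh13 was detected in every library, while Cdh15 was counted in 4 libraries and Cdh24 in 14.

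Levels varied widely between pools of the same group. Only 5 of the 20 judged members (Cdh13, Cdh2, Cdh4, Pcdh9 and Pcdh19) were counted in all 36 libraries. Over the 120 pairs of a member and a group, the coefficient of variation between libraries had a median of 95.3%. In 34 of these pairs, spread over 15 members, a library at 0 stood beside another of the same group at 20 CPM or more. Pcdh17 in E13 yellow, for example, had 45.1, 0, 113, 173 and 34.4 CPM in replicates 1, 2, 4, 5 and 6. The zero was in replicate 2, a library that stood apart.

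The age comparison asked which members differed between E13, when progenitors dominate the dorsal cortex, and E16, when later-born neurons are made. Embryo sums were not alike in colour between the ages. E13 embryo 5 held yellow cells only and E13 embryo 3 lacked yellow, while each E16 embryo held all 3 colours. Summed over the colours of an embryo, 2 of the 21 members tested passed the threshold of an adjusted p under 0.05 (edgeR's quasi-likelihood test with Benjamini-Hochberg adjustment), and both fell. Over all 13776 genes tested, 3.8% passed, and 1.88% passed and were lower at E16. The 2 were Pcdh19 (delta-2) and Pcdh11x (delta-1), the members on the X chromosome. Of 467 X-linked genes tested, 13 passed (2.78%), 9 of them lower at E16. Xist, which is transcribed from the inactive X of females, ranged from 0.182 to 1344 CPM over the E13 embryos and from 0 to 1085 CPM over the E16 embryos, so both ages held embryos with and without it. In bulk libraries, fewer cells of a type and less RNA per cell cannot be told apart.

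Pcdh19 (chrX:133582860-133688987 on the minus strand), a delta-2 protocadherin that binds N-cadherin and whose loss causes an X-linked epilepsy, summed to 34.7 to 108 CPM with a median of 57.3 over the 6 E13 embryos. In the 7 E16 embryos it summed to 6.72 to 37.4 CPM with a median of 11.3. The highest E16 embryo, number 6, lay above the lowest E13 embryo, and the other 6 E16 embryos lay below all E13 embryos. The means were 66.9 ± 30.0 CPM (SD, n = 6) and 14.4 ± 10.3 CPM (SD, n = 7), and the fitted log2 fold change was -2.08 (SE 0.44, adjusted p = 0.0153) by edgeR's quasi-likelihood test. It passed the threshold under all 21 alternatives run, with log2 fold changes from -2.51 to -1.89 and adjusted p from 7.41e-05 to 0.0438.

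The age effect on this gene was not compared between colours by a test. In green cells it had 66.8, 85.7, 77.2, 192 and 61.2 CPM in E13 replicates 1, 2, 3, 4 and 6, against 0.230 to 31.8 CPM with a median of 8.37 over the 7 E16 libraries. Every E13 green library lay above every E16 green library, and the highest E13 value, in replicate 4, came from a library that stood apart. The share of all genes with such a separation was not counted. The log2 fold change was -3.44 (SE 0.85, adjusted p = 0.0554), just short of the threshold. In red cells it had 46.5, 40.8, 22.6, 78.6 and 74.0 CPM in E13 replicates 1, 2, 3, 4 and 6, against 0.577 to 78.7 CPM with a median of 5.58 at E16. A single E16 red library, replicate 6, which stood apart, overlapped the E13 red range. Its log2 fold change was -1.55 (SE 1.02, adjusted p = 0.659) with all libraries and -3.04 (adjusted p = 0.0434) without the 6 that stood apart, edgeR's quasi-likelihood test in both cases.

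Yellow cells had 31.1, 9.30, 61.2, 108 and 58.8 CPM of Pcdh19 in E13 replicates 1, 2, 4, 5 and 6, against 6.78 to 29.8 CPM with a median of 22.3 at E16. The ranges overlapped through E13 replicate 2, the lowest, which stood apart. The log2 fold change was -1.36 (SE 0.69, adjusted p = 0.638). Without the libraries that stood apart it was -1.68 (adjusted p = 0.146) in yellow cells, -2.73 (adjusted p = 0.0703) in green cells and -2.42 (adjusted p = 0.000281) over embryo sums.

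Pcdh11x (chrX:120290259-120910619 on the plus strand), a delta-1 protocadherin, was low at both ages. It summed to 1.96 to 44.0 CPM with a median of 9.53 over the E13 embryos and to 0.661 to 4.19 CPM with a median of 1.09 over the E16 embryos. E13 embryos 5 (a yellow library alone) and 6 were far above the others, and the ranges overlapped through E13 embryo 4. With only the embryos that had all 3 colours the log2 fold change was -2.72 (adjusted p = 0.123, edgeR's quasi-likelihood test). The means of 16.3 ± 16.3 CPM (SD, n = 6) and 1.66 ± 1.23 CPM (SD, n = 7) gave a log2 fold change of -3.16 (SE 0.83, adjusted p = 0.0425) by edgeR's quasi-likelihood test. This call was lost in 14 of 21 alternatives, among them those without the libraries that stood apart, -2.32 (adjusted p = 0.11), and those without E13 embryo 1, 5 or 6 or E16 embryo 1, 2, 3, 5, 6 or 7. By colour it was -2.41 (SE 1.49) in yellow, -0.70 (SE 1.84) in red and -2.94 (SE 1.89) in green cells, none past the threshold. In E13 yellow, the replicates 1, 2, 4, 5 and 6 had 11.9, 0, 1.16, 44.0 and 53.9 CPM, whereas replicates 1, 2, 3, 4 and 6 had 14.9, 0, 4.90, 4.40 and 0 CPM in E13 red and 5.93, 17.3, 6.57, 0 and 30.1 CPM in E13 green. At E16, 2 of 7 yellow, 3 of 7 red and 5 of 7 green libraries were at 0.

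**Figure D2:**
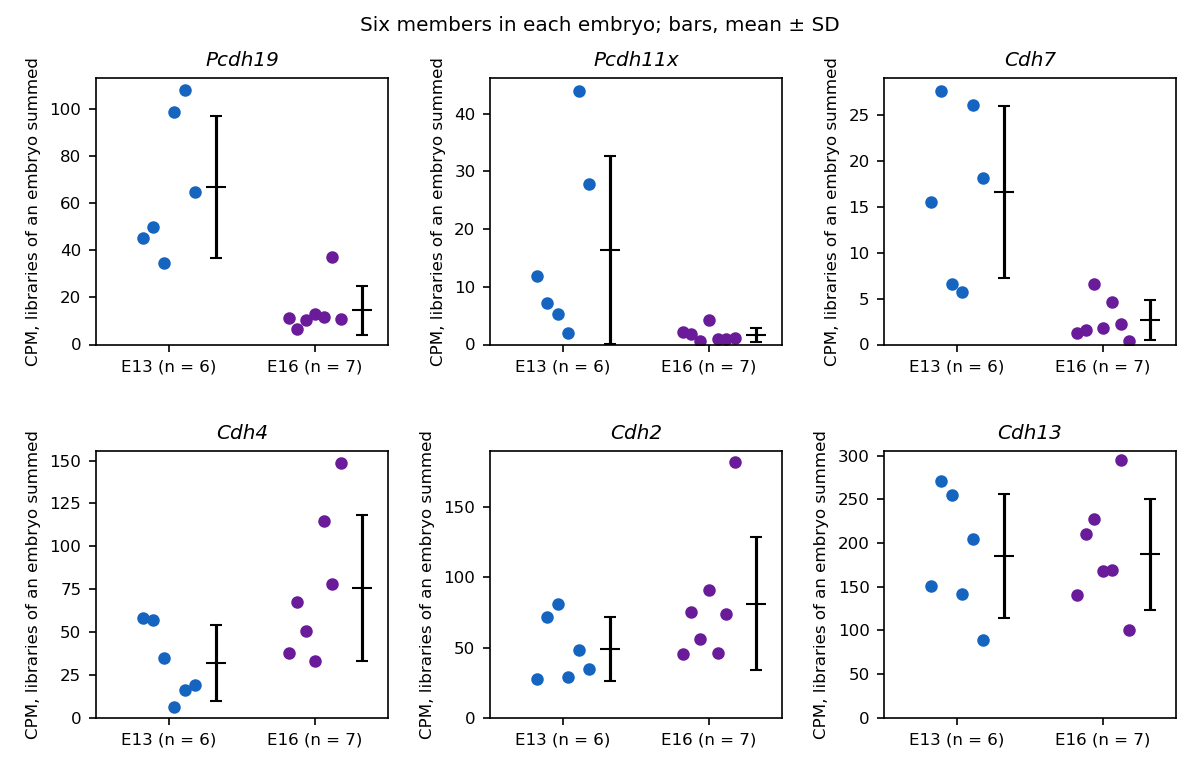
CPM of 6 members in each embryo, with the kept libraries of an embryo summed (points, E13 n = 6, E16 n = 7), and mean ± SD beside them; each panel has its own linear axis from 0. Pcdh19 runs from 34.7 to 108 CPM at E13 and from 6.72 to 37.4 CPM at E16, while Cdh13 has means of 185 and 187 CPM at E13 and E16.

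Among the other delta-2 protocadherins none passed in an age comparison. Over embryo sums, Pcdh17 had a log2 fold change of -1.06 (SE 0.51, adjusted p = 0.261), Pcdh10 of -0.97 (SE 0.56, adjusted p = 0.378), Pcdh18 of -0.69 (SE 0.51, adjusted p = 0.506) and Pcdh8 of 0.70 (SE 0.37, adjusted p = 0.327). Pcdh17 was highest in E13 embryo 5, a yellow library alone, at 173 CPM against 18.1 to 69.2 CPM in the other E13 embryos. With Pcdh19 counted, 4 of 5 delta-2 members had a negative sign, with a median of -0.97, beside a median of 0.03 over all genes tested. The share of all genes with a negative sign was not counted, so no shift of the class is read from this. Mean levels in E13 yellow, red and green were 73.0 ± 69.2, 32.8 ± 18.9 and 37.6 ± 20.3 CPM for Pcdh17 (SD, n = 5). For Pcdh10 they were 17.3 ± 20.2, 15.6 ± 15.5 and 18.3 ± 14.6 CPM. Those of Pcdh18 were 28.5 ± 22.1, 38.4 ± 17.8 and 81.3 ± 79.9 CPM. Pcdh8, an activity-regulated protocadherin also called arcadlin, was the class member whose sign was positive. Its library medians were 43.4, 32.1 and 33.1 CPM in yellow, red and green cells at E13 and 77.2, 48.8 and 71.5 CPM at E16.

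Delta-1 members other than Pcdh11x did not pass. Pcdh7 had a log2 fold change over embryo sums of 1.05 (SE 0.46, adjusted p = 0.214) and Pcdh9 of 0.38 (SE 0.43, adjusted p = 0.697). E16 Pcdh9 levels in yellow cells ran from 7.64 to 278 CPM with a median of 29.0, and its highest value came from replicate 7, which stood apart. Pcdh15 (the other partner of the hair-cell tip link) had -1.8 (SE 1.27, adjusted p = 0.481) and reached 28.5 CPM at most in any library. Pcdh20, tested over embryo sums and in yellow cells only, had -0.57 (SE 1.51, adjusted p = 0.887).

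Of the type I cadherins, Cdh4 and Cdh2 had higher levels at E16 without passing the threshold. Cdh4 summed to 6.45 to 58.4 CPM with a median of 26.7 over the E13 embryos and to 32.9 to 148 CPM with a median of 67.6 over the E16 embryos. The ranges overlapped, and E16 embryos 5 and 7 were the highest. Its log2 fold change was 1.42 (SE 0.51, adjusted p = 0.124), and a linear model with the embryo as a random effect (limma-voom) over single libraries gave 1.52 (adjusted p = 0.0267). The 2 highest E16 embryos each held libraries that stood apart, and without the 6 such libraries the log2 fold change was 0.56 (adjusted p = 0.539). Cdh2 summed to 27.6 to 80.9 CPM with a median of 41.6 at E13 and to 45.3 to 182 CPM with a median of 73.6 at E16, with a log2 fold change of 0.90 (SE 0.39, adjusted p = 0.204). Its highest embryo was again number 7 at E16, in which the yellow library had 409 CPM against at most 60.5 CPM in the other E16 yellow libraries.

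Cdh15 (M-cadherin, known from muscle) was counted in 4 libraries. In E13 yellow it had 89.6, 0, 1.39, 36.2 and 0 CPM in replicates 1, 2, 4, 5 and 6, and it was at 0 in all 10 red and green E13 libraries. At E16 it was at 0 in all yellow and green libraries, and E16 red replicate 1 had 3.72 CPM. With such zeros a fitted fold depends on the prior count and is no bound, so the fitted -9.42 in yellow cells and -5.83 over embryo sums (adjusted p = 0.253 and 0.121) carry no size.

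The type II cadherins, which mark areas and layers of the cortex in partly overlapping patterns, split by sign over embryo sums, with 3 of 7 higher, 4 of 7 lower and a median of -0.23. Cdh7 (chr1:109982431-110140157 on the plus strand) came closest to the threshold. It summed to 5.67 to 27.7 CPM with a median of 16.8 over the E13 embryos and to 0.407 to 6.61 CPM with a median of 1.8 over the E16 embryos. The ranges overlapped narrowly, at E13 embryos 3 and 4 and E16 embryo 3. The log2 fold change was -2.50 (SE 0.73, adjusted p = 0.0638). Adding back the 3 libraries with few aligned reads gave -2.61 with an adjusted p of 0.0473, a Wald test in DESeq2 gave -2.53 with an adjusted p of 0.00468, and leaving out the libraries that stood apart gave -1.81 (adjusted p = 0.143).

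Cdh8 was near 0 in yellow cells at E13. In E13 yellow it had 0, 0, 0.693, 0 and 0 CPM in replicates 1, 2, 4, 5 and 6, whereas at E16 yellow libraries held 0 to 23.2 CPM with a median of 8.59. Among the 7 E16 yellow libraries 1 was at 0 and overlapped the E13 range. The fitted log2 fold change was 5.72 (SE 1.91, adjusted p = 0.318) by edgeR's quasi-likelihood test, a size that rests on zeros. The DESeq2 Wald test gave 6.00 (adjusted p = 0.0336). In yellow cells Cdh8 reached the mean count needed for testing almost only through E16 libraries, so a higher level at E16 was favoured by its selection. In red cells E13 replicates 1, 2, 3, 4 and 6 had 3.60, 0, 27.5, 13.2 and 0 CPM and in green cells 0, 14.2, 43.5, 0 and 0 CPM. Fold changes there were 0.37 (SE 1.64) and 0.15 (SE 1.65) on the log2 scale; the difference in age effect between colours was not tested.

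The remaining type II members stayed further from the threshold over embryo sums. The log2 fold changes were 1.07 (SE 0.94, adjusted p = 0.592) for Cdh12, 1.06 (SE 0.80, adjusted p = 0.52) for Cdh10, -0.23 (SE 0.55, adjusted p = 0.873) for Cdh6, -0.26 (SE 0.56, adjusted p = 0.858) for Cdh11 and -0.99 (SE 1.47, adjusted p = 0.777) for Cdh24. In green cells Cdh12 was fitted at 4.49 (SE 2.10, adjusted p = 0.314), from E13 libraries of which 4 of 5 were at 0 to an E16 median of 4.16 CPM. There Cdh12 reached the mean count needed for testing almost only through E16 libraries, which favoured a higher level at E16. Cdh10 swung between pools at E13, where red replicates 1, 2, 3, 4 and 6 had 2.31, 0.291, 0, 61.6 and 6.85 CPM. Cdh13 itself stood at 185 ± 70.6 CPM (SD, n = 6) and 187 ± 63.6 CPM (SD, n = 7) over embryo sums, with a log2 fold change of 0.15 (SE 0.27, adjusted p = 0.821).

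**Figure D3:**
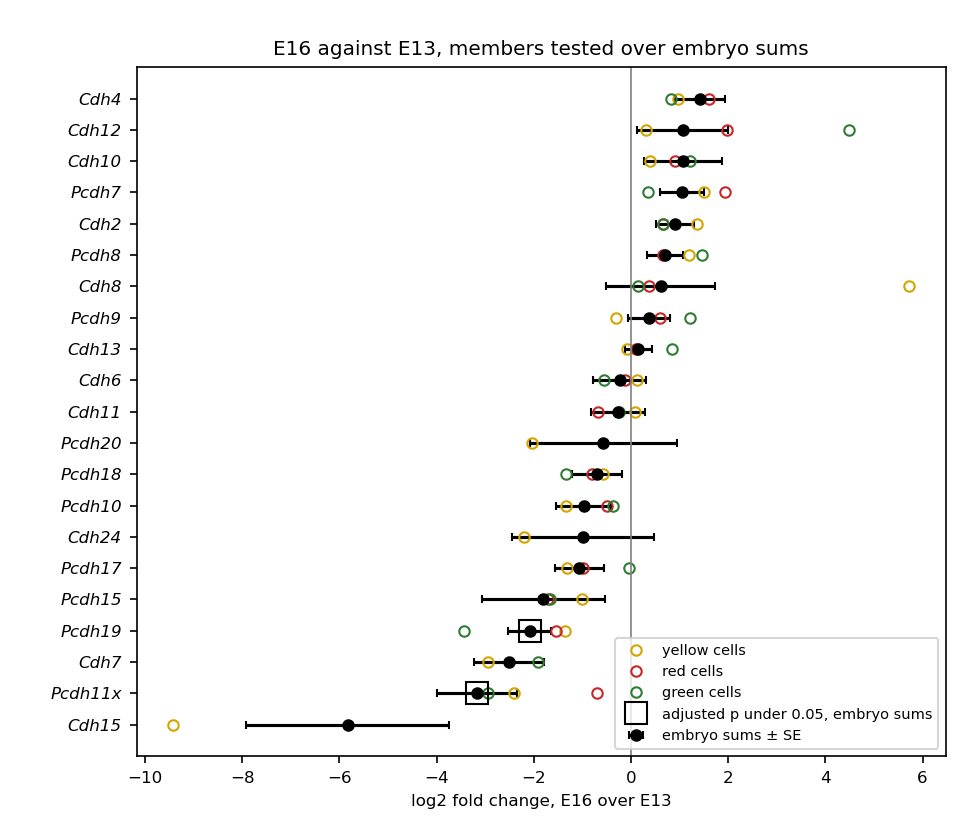
Log2 fold change of E16 over E13 for the 21 members tested over embryo sums (black points, ± SE) and in each colour where tested (open circles, no error shown). Squares mark Pcdh19 (-2.08) and Pcdh11x (-3.16), which passed the threshold over embryo sums; the far points of Cdh15, Cdh8 and Cdh12 rest on libraries at 0.

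Within single colours no member passed in the age comparison. The counts were 0 of 21 members tested in yellow cells, where 0.149% of all genes passed, 0 of 17 in red cells (0.322%) and 0 of 18 in green cells (1.39%). At an unadjusted p under 0.05, 3, 0 and 2 members were found in the same order, beside 989 of 11378, 1305 of 11174 and 1753 of 11186 genes. Cdh15 was tested in yellow cells through counts at E13 alone, so it could only come out lower at E16. Cdh8 in yellow cells and Cdh12 in green cells reached the mean count needed almost only through E16 libraries. Pcdh11x in green cells reached it almost only through E13 libraries. For these the filter favoured the sign that was found. The 3 largest positive and negative log2 fold changes in yellow cells were 5.72 for Cdh8, 1.51 for Pcdh7 and 1.35 for Cdh2, against -9.42 for Cdh15, -2.95 (SE 1.14) for Cdh7 and -2.41 for Pcdh11x. In red cells they were 1.97 for Cdh12, 1.94 for Pcdh7 and 1.60 for Cdh4, against -1.70 for Pcdh15, -1.55 for Pcdh19 and -0.98 for Pcdh17. In green cells they were 4.49 for Cdh12, 1.46 for Pcdh8 and 1.22 for Pcdh9, against -3.44 for Pcdh19, -2.94 for Pcdh11x and -1.91 (SE 1.76) for Cdh7. By DESeq2's Wald test Cdh8 and Cdh15 passed in yellow cells and Pcdh19 in green cells.

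Marker lists moved with age beside these members. Over embryo sums, 5 of 8 radial glia markers tested (Vim, Pax6, Sox2, Nes and Hes1) were lower at E16, although the sum of the list, led by Fabp7, ran from 1608 to 2505 CPM at E13 and from 778 to 2794 CPM at E16. Of 5 intermediate progenitor markers 1 (Gadd45g) was lower, with sums of 932 to 1547 and 279 to 752 CPM, and of the projection neuron markers Neurod6 and Dcx were higher and Tbr1 was lower, with sums of 3094 to 6088 and 4615 to 6185 CPM. Of 4 meningeal fibroblast markers tested, 3 (Col3a1, Col1a2 and Lum) were lower, with sums of 22.0 to 628 CPM at E13 and 0.678 to 7.03 CPM at E16, where Col3a1 was at 0 in every library. Erythroid sums were 0.338 to 10439 and 4.40 to 2113 CPM with none of 4 passing, interneuron sums 16.9 to 141 and 0.136 to 13.9 CPM with none of 4 passing, and Cajal-Retzius sums 63.8 to 474 and 30.4 to 194 CPM with none of 4 passing. Endothelial, mural and microglial sums per embryo stayed at or below 48.8 CPM with none passing, and P2ry12 was at 0 in every library. Of 2 oligodendrocyte precursor markers tested Pdgfra was lower, with sums of 1.19 to 25.7 and 0 to 155 CPM, the highest from Olig1 in a single E16 red library. Their part in the fall of Pcdh19 and Pcdh11x was not tested.

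Genes that work with the family were given by 4 lists, beside 3.8% of all genes past the threshold over embryo sums and 1.39% in green cells. Over embryo sums, 1 of 17 catenins and adherens junction partners tested rose, Ctnnd2 (delta-catenin, a neuronal p120 relative), with a log2 fold change of 1.47 (SE 0.28, adjusted p = 0.00693) by edgeR's quasi-likelihood test. Of 7 WAVE complex genes and 5 cadherin proteases none passed. Of 10 other cadherin superfamily members 1 rose, Clstn2 (calsyntenin 2, a postsynaptic cadherin), with 3.33 (SE 0.83, adjusted p = 0.0344). In green cells 2 of 10 passed, where Clstn2 had 8.60 (SE 0.88, adjusted p = 0.000306) and Celsr3 (a multipass cadherin of axon guidance) 4.14 (SE 0.85, adjusted p = 0.0262), and in yellow and red cells no gene of these 4 lists passed.

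The colour comparison asked whether the family differed between singly coloured cells, which hold chromosome 7 from 1 parent, and yellow cells of the same embryo. No member passed the threshold at either age. At E13, 0 of 20 members tested passed when red and green were averaged (0.00848% of all genes passed), 0 of 20 for red (0%) and 0 of 20 for green (0.0255%). An unadjusted p under 0.05 was reached by 5, 4 and 3 of the 20, and over all genes by 808, 553 and 749 of 11786. The 5 include Cdh7, Cdh12, Cdh15 and Cdh24, which reached the mean count needed for testing mostly through yellow libraries. For such members the filter favours a lower level in singly coloured cells, so no excess over all genes is read from these counts. At E16, 0 of 15 members passed in each of the 3 contrasts (0% of all genes in each), and none had an unadjusted p under 0.05, while over all genes 257, 313 and 166 of 10794 did.

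Cdh13 (chr8:118283733-119324921 on the plus strand) was the member whose E13 colour difference had the smallest unadjusted p. In yellow replicates 1, 2, 4, 5 and 6 it had 252, 415, 247, 204 and 235 CPM, with a mean of 271 ± 82.6 CPM (SD, n = 5). In red replicates 1, 2, 3, 4 and 6 it had 79.2, 280.4, 273, 50.4 and 5.48 CPM and in the green ones 114, 157, 192, 81.6 and 23.0 CPM. Every green library lay below every yellow one, and red overlapped yellow through replicates 2 and 3. Within the 4 embryos that had all colours, red and green were each lower than yellow in 4 of 4, and the mean log2 difference of singly coloured from yellow was -2.14 ± 1.46 (SD, n = 4, CPM + 1). The fitted log2 fold change was -2.23 (SE 0.55, adjusted p = 0.422) by edgeR's quasi-likelihood test for the average, -2.29 (SE 0.67, adjusted p = 0.937) for red and -2.17 (SE 0.63, adjusted p = 0.565) for green, and none of these passed. Without the embryo as a block the average was -1.16 (adjusted p = 0.54), and by DESeq2's Wald test it was -2.23 (adjusted p = 0.00152). In the 4 embryos with all colours, the average of red and green was also below yellow each time for Cdh7, Cdh11 and Cdh12. It was above yellow each time for Cdh2, Pcdh15 and Pcdh19. How many of all genes keep 1 sign in these embryos, or show no overlap, was not counted.

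At E16 Cdh13 was lower in red and in green than in yellow in 6 of 7 embryos each. The means were 248 ± 89.3 CPM in yellow, 136 ± 81.7 CPM in red and 192 ± 66.7 CPM in green cells (SD, n = 7), and the ranges of 90.1 to 348, 16.4 to 251 and 98.7 to 292 CPM overlapped. The log2 fold change of the average was -0.62 (SE 0.37, adjusted p = 1). The difference between the ages itself was 1.60 (SE 0.69, adjusted p = 1) with an unadjusted p of 0.0273, so it did not pass.

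The type II members Cdh7 and Cdh12 also had lower E13 levels in singly coloured cells. Both reached the mean count needed for testing mostly through yellow libraries, so a lower level in singly coloured cells was favoured by their selection. Cdh7 had 27.6, 85.5, 13.4, 26.1 and 50.4 CPM in yellow replicates 1, 2, 4, 5 and 6, 0, 0, 2.80, 0 and 2.74 CPM in red replicates 1, 2, 3, 4 and 6 and 24.7, 2.88, 19.7, 0 and 0 CPM in the green ones. Red did not overlap yellow, and green did, and how many of all genes separate in this way was not counted. It was lower than yellow in 4 of 4 embryos for red and for green, with log2 fold changes of -5.61 (SE 1.79, adjusted p = 0.551) for the average and -7.07 (SE 2.25, adjusted p = 0.993) for red by edgeR's quasi-likelihood test. Cdh12 had 2.04, 11.9, 11.3, 6.43 and 4.41 CPM in the yellow libraries, whereas 4 of 5 red and 4 of 5 green libraries were at 0. A lone red library, replicate 3, had 14 CPM, and embryo 3 had no yellow library to set beside it. The log2 fold change of the average was -6.70 (SE 2.13, adjusted p = 0.551), with a size that rests on zeros. Without the libraries that stood apart the averages were -2.79 (adjusted p = 0.186) for Cdh13, -3.75 (adjusted p = 0.643) for Cdh7 and -5.20 (adjusted p = 0.645) for Cdh12. At E16 Cdh12 ran to 18.4, 25.7 and 18.6 CPM in yellow, red and green cells, with 1, 3 and 3 of 7 libraries at 0.

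Cdh24 and Cdh15 were the other members with an unadjusted p under 0.05 in the E13 average, and each rests on few yellow libraries. The same yellow counts brought both past the filter on the mean count, so a lower level in singly coloured cells was favoured by their selection. Cdh24 had 1.45, 72.1, 4.39, 0 and 0 CPM in yellow replicates 1, 2, 4, 5 and 6, the highest in a library that stood apart, and 0, 10.2, 1.64, 0 and 0 CPM in green replicates 1, 2, 3, 4 and 6. In red cells it reached 0.233 CPM, which is 1 count. The averages were -5.12 (SE 1.65, adjusted p = 0.584) for Cdh24 and -5.98 (SE 2.00, adjusted p = 0.67) for Cdh15, whose yellow values are given above. In the other direction, the largest positive log2 fold changes at E13 were 4.13 (SE 2.87) for Cdh8, 2.32 (SE 2.60) for Pcdh15 and 1.53 (SE 1.52) for Cdh6. Their yellow libraries included zeros, and Cdh6 in red replicates 1, 2, 3, 4 and 6 ran over 22.9, 0, 32.4, 4.40 and 108 CPM. Cdh8 reached the mean count needed for testing almost only through red and green libraries, so a higher level there was favoured by its selection. Pcdh15 in the green libraries had 14.3, 0.384, 0, 15.3 and 6.58 CPM. The same 3 members led for red alone, at 4.31, 1.65 and 0.81, and for green alone, at 3.96, 3.00 and 2.25, and the contrasts share the yellow libraries.

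**Figure D4:**
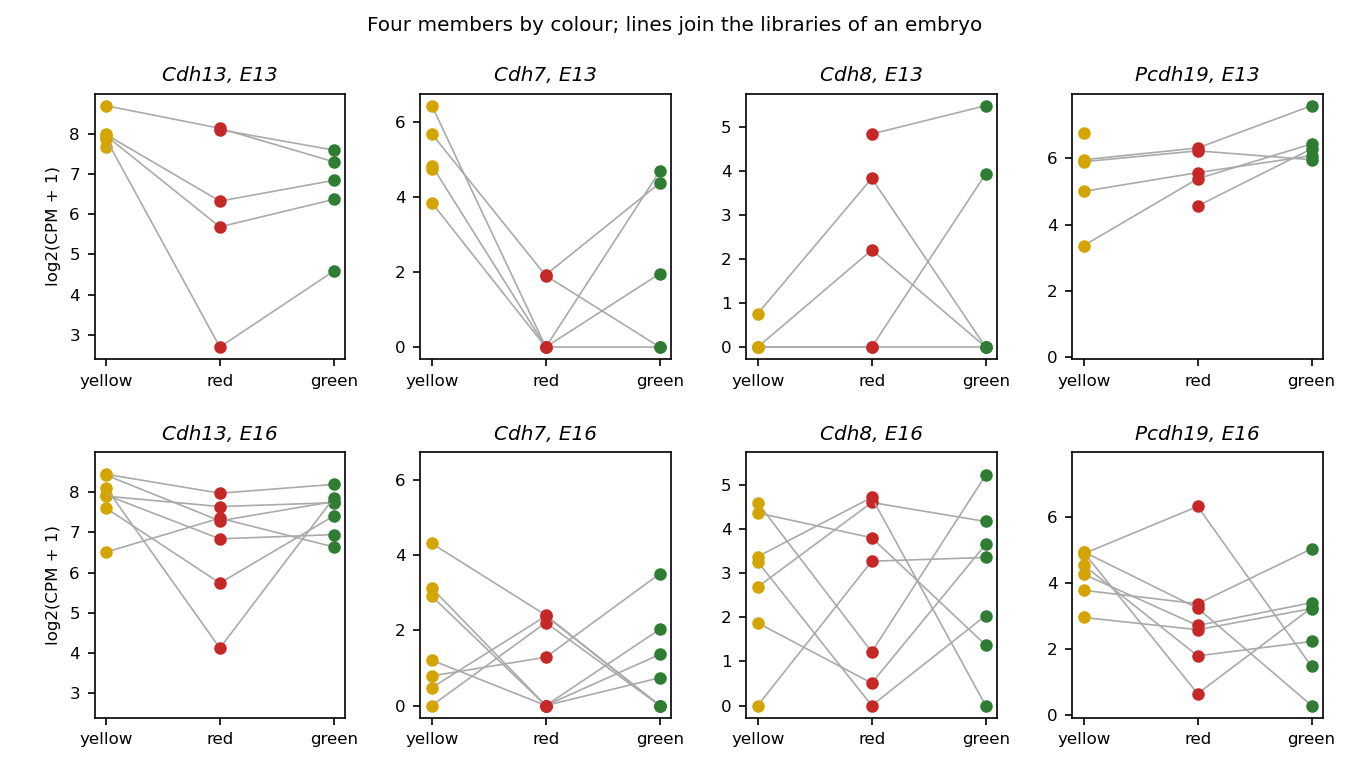
Level of Cdh13, Cdh7, Cdh8 and Pcdh19 in yellow, red and green cells at E13 (top) and E16 (bottom), as log2(CPM + 1), with 1 point for each library and lines that join libraries of the same embryo. Cdh13 and Cdh7 at E13 fall from yellow to red and to green in each of the 4 embryos with all colours, and at E16 Cdh7 is higher in singly coloured cells in 3 embryos and lower in 4.

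Pcdh19 leaned in opposite directions at the 2 ages without a difference that passed. Singly coloured cells were higher than yellow in 4 of 4 embryos at E13 (mean log2 difference 1.14 ± 1.00, SD, n = 4) and higher in 1 of 7 at E16 (-1.50 ± 1.42, SD, n = 7). The fitted log2 fold changes were 1.06 (SE 0.60, adjusted p = 0.769) at E13 and -1.42 (SE 0.98, adjusted p = 1) at E16, and the difference between them was -2.49 (SE 1.26, adjusted p = 1) with an unadjusted p of 0.0587. In the test of that difference 0 of 20 members and 0% of all genes passed, and 3 members (Cdh12, Cdh13 and Cdh24) and 475 of 11472 genes had an unadjusted p under 0.05. Among its widest fitted sizes were those for Cdh12 (6.55), Cdh24 (5.28), Cdh7 (4.46), Cdh8 (-3.98), Pcdh15 (-3.97) and Pcdh11x (-3.25). These members had zeros in at least 1 colour at each age. The fitted value for Cdh15 was above all of these, but Cdh15 was counted in 4 libraries, so it carries no size.

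At E16 the members with the largest colour differences were Pcdh10 (0.85 (SE 1.19)), Cdh6 (0.68 (SE 0.94)) and Cdh10 (0.37 (SE 0.92)) upwards and Pcdh19 (-1.42 (SE 0.98)), Cdh11 (-1.20 (SE 1.03)) and Cdh13 downwards, all on the log2 scale and all with an adjusted p of 1. For red alone Cdh6 (1.00), Cdh10 (0.91) and Pcdh10 (0.48) led upwards and Cdh11 (-1.83), Pcdh19 (-1.42) and Pcdh17 (-1.10) downwards. For green alone Pcdh10 (1.21), Pcdh18 (0.96) and Pcdh17 (0.59) led upwards and Pcdh19 (-1.42), Cdh11 (-0.57) and Cdh13 (-0.38) downwards. Cdh11 (a mesenchymal type II cadherin that neurons also use) was lower in singly coloured than in yellow cells in 6 of 7 embryos at E16 and in 4 of 4 at E13, where its adjusted p was 0.922. Cdh2, by contrast, was higher in singly coloured cells in 4 of 4 E13 embryos and 3 of 7 E16 embryos, with a log2 fold change of 0.46 (SE 0.63) at E13.

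Sums of cell type markers also stood at different levels between the colours at E13. Summed projection neuron markers ran over 4187 to 6088 CPM in yellow, 2432 to 3367 in red and 2079.7 to 2534 in green cells, and all 8 had a negative sign in the average of red and green, none past the threshold. Radial glia sums ran over 786 to 1675, 1759 to 2540.1 and 1935 to 3318 CPM in yellow, red and green cells, with all 7 tested positive in sign and Vim past the threshold in green. Yellow libraries did not overlap either singly coloured group for these 2 lists. Intermediate progenitor sums were 455 to 1049, 976 to 2080.4 and 1054 to 1526 CPM, with 5 of 5 positive in sign and green above all yellow libraries. Cajal-Retzius sums ran over 184 to 519.9, 33.2 to 591 and 19.7 to 295 CPM, with 3 of 3 negative. Meningeal fibroblast sums were 0 to 566, 15.1 to 807 and 53.6 to 391 CPM, with 4 of 4 positive, and microglia sums 0 to 50.1, 0 to 0.934 and 0 to 17.8 CPM, with 2 of 2 negative. Erythroid sums were 0.338 to 9385, 0.228 to 19355 and 0.576 to 7324 CPM, with 4 of 4 negative. Of interneuron markers 3 of 4, of endothelial markers 2 of 2, of mural markers 1 of 2 and of oligodendrocyte precursor markers 1 of 1 were positive, and none of these other lists held a gene past the threshold. At E16 the projection neuron sums were 5452 to 6545, 4447 to 5790.4 and 4031 to 6411 CPM and overlapped. The part of these lists in the lower E13 levels of Cdh13, Cdh7 and Cdh12 was not tested. Among the catenins, WAVE genes, other superfamily members and proteases no gene passed in any colour comparison.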

How the data were processed

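Poly-A RNA of sorted pools was amplified with Smart-Seq2, which marks no strand and carries no molecular identifiers, so counts are of reads. The authors aligned reads with STAR 2.5.0c to GRCm38 (mm10) with Gencode M16 and deposited raw counts of uniquely aligned reads per gene, and SAMtools 1.8 and bedtools 2.26.0 are named in the submitters' processing notes. The column without strand was used. Symbols and coordinates came from Gencode M21 of the same build, which matched 53274 of 53379 genes. CPM are counts per 1000000 gene counts of a library.

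The quasi-likelihood test of edgeR 4.0.16 (R 4.3.3) was run with TMM factors, for genes with a mean count of 10 or more in the fit, with Benjamini-Hochberg adjustment over all genes tested. The ages were compared in each colour and over the summed libraries of an embryo, and colours within an age with the replicate number as a block, as in the sample term of the study's own model. The study took single individuals as replicates, and libraries of an age with the same replicate number in the labels were taken as the same embryo. Libraries of the same number had deviations with a mean correlation of 0.0438 at E13 and 0.0294 at E16, beside -0.00918 and -0.00354 for different numbers, so the pairing comes from the labels and not from these values. Gene counts of 472924 to 5205788 place 3 counts at 0.576 to 6.34 CPM, and intervals and floors cover counting error only.

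The members and lists were chosen with earlier results of these data known. Every judged member is named, and full values are given for members past the threshold and for the 3 largest changes in each direction of a comparison, those of the smallest levels by range. Alternatives were all 39 libraries, no libraries that stood apart, DESeq2 1.42.0 size factors and Wald test, filterByExpr or no filter, limma 3.58.1 (voom), embryos with all 3 colours, no replicate block, and each replicate left out. The procedures were tested on simulated data. Promoters came from a RefSeq table of GRCm38.p6, and protein sequences were not used here. A result for a single marker gene is not reported here.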

Additional observations from a re-analysis of the deposited data

Results flagged for a closer look

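In 116 groups of 5 or 7 values, a member in an age and colour, 32 libraries lay far from the rest by Dixon's criterion. All were the highest of their group. The criterion's rate of about 1 in 20 groups holds for normally distributed values. Pools with many zeros and a wide spread cannot be assumed to meet that, so no excess is read from the count. Libraries that stood apart by their correlation gave the following values: E13 green replicate 4 (192 CPM for Pcdh19), E13 yellow replicate 2 (38.2 CPM for Cdh10, 415 CPM for Cdh13, 72.1 CPM for Cdh24 and 167 CPM for Pcdh9), E16 red replicate 5 (263 CPM for Cdh4 and 64.9 CPM for Pcdh18), E16 red replicate 6 (78.7 CPM for Pcdh19) and E16 yellow replicate 7 (144 CPM for Cdh11, 409 CPM for Cdh2, 288 CPM for Cdh4, 101 CPM for Pcdh17 and 278 CPM for Pcdh9). Libraries that did not stand apart gave E13 green replicate 2 (10.2 CPM for Cdh24), E13 red replicate 1 (28.5 CPM for Pcdh15), E13 red replicate 2 (92.4 CPM for Cdh4), E13 red replicate 3 (14 CPM for Cdh12), E13 red replicate 4 (61.6 CPM for Cdh10) and E13 yellow replicate 5 (28.4 CPM for Pcdh15). Further such values were in E16 green replicate 2 (10.5 CPM for Cdh24), E16 green replicate 3 (142 CPM for Pcdh9), E16 green replicate 4 (11.1 CPM for Pcdh11x, 11.1 CPM for Pcdh15 and 31.8 CPM for Pcdh19), E16 green replicate 5 (10.4 CPM for Cdh7), E16 red replicate 1 (3.72 CPM for Cdh15) and E16 red replicate 3 (92.8 CPM for Pcdh7). The remaining values were in E16 red replicate 4 (11.8 CPM for Pcdh15), E16 red replicate 7 (16.9 CPM for Pcdh11x), E16 yellow replicate 2 (14.5 CPM for Pcdh11x), E16 yellow replicate 3 (19.0 CPM for Cdh7) and E16 yellow replicate 5 (14.2 CPM for Pcdh15). Some of these values rest on few reads. Pcdh11x had 8 counts in E16 red replicate 7 and 15 in E16 yellow replicate 2. In E16 green replicate 4 Pcdh11x and Pcdh15 had 7 counts each. 

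The libraries left out for few aligned reads also held member counts above every used library of their group: E13 red replicate 5 held 182 CPM of Pcdh10 and E13 yellow replicate 3 held 587 CPM of Cdh13, 172 CPM of Pcdh19, 129 CPM of Pcdh7, 108 CPM of Cdh11 and 86.9 CPM of Cdh7.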

How the results depend on the processing

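Member counts changed as follows. DESeq2's Wald test called 2 members in yellow cells with age (Cdh8 and Cdh15), 1 in green cells (Pcdh19), 2 for singly coloured against yellow at E13 and 2 for red (Cdh7 and Cdh13 in both), and 1 for green (Cdh13). Without the libraries that stood apart, 1 member was called with age in red cells and 1 over embryo sums, Pcdh19 in both. With no filter, 1 was called in green cells and 1 over embryo sums, and with embryos of all 3 colours 1 over embryo sums, again Pcdh19. Leaving out each replicate gave 0 to 1 members in green cells and 1 to 2 over embryo sums. Green calls came without E16 replicate 4 or 7. Of the other 142 member counts none moved by over 1.5 times. Without the replicate block 0 members were called in all 7 colour comparisons, as with it.

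The sign turned for Cdh6 in red against yellow at E13 with all 39 libraries (-0.43), for Pcdh15 in the same comparison without replicate 1 (-2.45, with a range to 3.69 over the replicates left out), for Pcdh10 in red against yellow at E16 without replicate 4 (-0.093, with a range to 1.15) and for Pcdh11x in the difference between ages without the replicate block (0.60). None of these passed the threshold, and the cause was not tested.

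Over all genes, the calls with age were 17, 36, 155 and 524 in yellow, red and green cells and over embryo sums. They became 198, 312, 691 and 1271 by DESeq2's Wald test and 146, 189, 189 and 906 without the libraries that stood apart. With all 39 libraries red fell to 5 and green to 36, with no filter yellow rose to 55, and voom gave 1230 over embryo sums. Leaving out replicates gave 1 to 31, 5 to 78, 71 to 203 and 297 to 570 calls. For singly coloured, red and green against yellow at E13 the calls were 1, 0 and 3, and 558, 321 and 521 by DESeq2, 20, 7 and 21 with no filter, 9, 1 and 6 without the block and 9, 1 and 0 without the libraries that stood apart. All 39 libraries gave 0 in each, filterByExpr 5 for singly coloured, and left-out replicates 0 to 7, 0 to 1 and 0 to 5. At E16 DESeq2 gave 87, 114 and 58 calls and no filter 2, 2 and 0, and the difference between ages gave 219 by DESeq2, 26 with no filter and 2 with filterByExpr, all against 0.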
